A study of Homo sapiens with 2 samples.

Results

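Long noncoding RNA genes and the host genes of small RNAs were described in HL-60 cells, a human acute myeloid leukaemia line. Total RNA had been hybridised to 2 Affymetrix Human Gene 1.0 ST arrays. Members were the genes whose symbol in the probe annotation was LINC, SNHG or MIR-HG with a number, or GAS5, MALAT1, NEAT1, DLEU1 or DLEU2, on probe sets that carried 1 symbol. The rule gave 221 of 18404 named genes, on 232 of 32321 probe sets: 204 LINC genes, 12 microRNA host genes, the small nucleolar RNA (snoRNA) host genes SNHG17 and SNHG29, DLEU1, DLEU2 and MALAT1. Both arrays were labelled as wild-type HL-60, replicates 1 and 2, cultured in DMEM with 10% fetal bovine serum, and the labels name no treatment. They form 1 group, so nothing was compared between treatments or genotypes and no test was possible. Whether separate cultures were used is not given in the labels, and the spread between the arrays may be technical.

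Long noncoding RNAs are transcribed and usually spliced like messenger RNAs but encode no known protein, and many are made in few cell types. A host gene carries small RNAs within its transcript. Intronic snoRNAs, which guide chemical modification of ribosomal RNA, are trimmed from the excised introns of hosts such as GAS5 and the SNHG genes, and the spliced host RNA is often degraded by nonsense-mediated decay. MicroRNA hosts are cut by DROSHA into hairpins, which DICER1 trims to the mature microRNA. MALAT1 is an abundant RNA that stays in nuclear speckles. LINC symbols are given to intergenic transcripts that mostly have no assigned function.

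Signals are log2 RMA values, and a gene's error is the SD over the 2 arrays. A gene was counted as above background where it exceeded the 95th percentile of 359 olfactory receptor genes on both arrays (2.98 on replicate 1 and 2.88 on replicate 2), and a stricter background came from 115 keratin-associated protein, bitter taste receptor and beta-defensin genes (5.41 and 5.23). A signal depends on the probes of its set, so an order of signals is not an order of transcript abundance. Promyelocyte markers were present, with MPO at 7.84 ± 0.52 (n = 2) and 5 of 5 measured markers above the olfactory threshold. The share of all named genes was 55.8%. Of other markers, 0 of 4 T cell, 0 of 3 monocyte and 0 of 2 erythroid markers were above it. So were 2 of 3 B cell markers (CD79A and CD79B) and 1 of 4 epithelial markers, KRT18 (3.94 and 3.97 on replicates 1 and 2). Promyelocyte markers also differed between the arrays, by a median of -0.73 (replicate 2 minus replicate 1), but did not move together. CTSG (-1.75), PRTN3 (-1.48) and MPO (-0.73) were lower on replicate 2, whereas ELANE (0.24) and AZU1 (0.18) were higher. AZU1 passed the threshold narrowly, at 3.01 on replicate 1. The part of these markers in the differences described below was not tested.

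Few of the noncoding genes gave a signal above background. Of the 221 members, 47 (21.3%) exceeded the olfactory threshold on both arrays, beside 55.8% of all named genes, and 6 (2.71%) exceeded the second threshold, beside 17.0%. A further 17 members exceeded the olfactory threshold on replicate 2 only and 6 on replicate 1 only, and 151 on neither array. The 6 above the second threshold were MALAT1, SNHG17, LINC02910, LINC01296, LINC02076 and LINC00680. The median signal of the members was 2.47 on replicate 1 and 2.31 on replicate 2, beside 3.35 and 3.34 for all genes. The threshold matters for these counts, since 30 members were above the 99th percentile of the olfactory receptors.

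**Figure D1:**
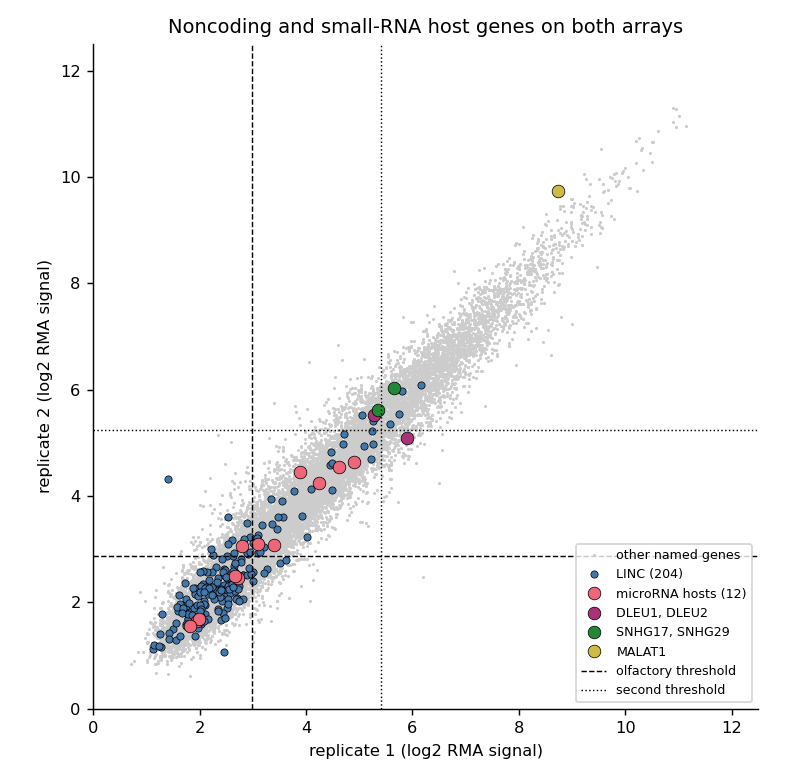
Each point is a gene, with its log2 RMA signal on replicate 1 on the horizontal axis and on replicate 2 on the vertical axis; grey points are other named genes, dashed lines the olfactory threshold and dotted lines the second threshold. Most LINC genes lie in the lower left corner with 151 members above neither olfactory threshold, while MALAT1 stands at 8.74 and 9.74 and LINC00652 lies far from the diagonal at 1.41 and 4.32.

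The classes differed in how often they passed. Of the 204 LINC genes, 36 (17.6%) exceeded the first threshold and 4 the stricter one, whereas 6 of the 12 microRNA hosts were above the first and 0 above the second. SNHG17, SNHG29, DLEU1, DLEU2 and MALAT1 were all above the olfactory threshold. Of other long noncoding RNA genes on the array, 62 of 181 with antisense names (34.3%) and 58 of the remaining 230 (25.2%) were above it. The share was 58.0% for protein-coding genes and 36.0% for pseudogenes. These shares describe 2 arrays and were not tested against each other.

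**Figure D2:**
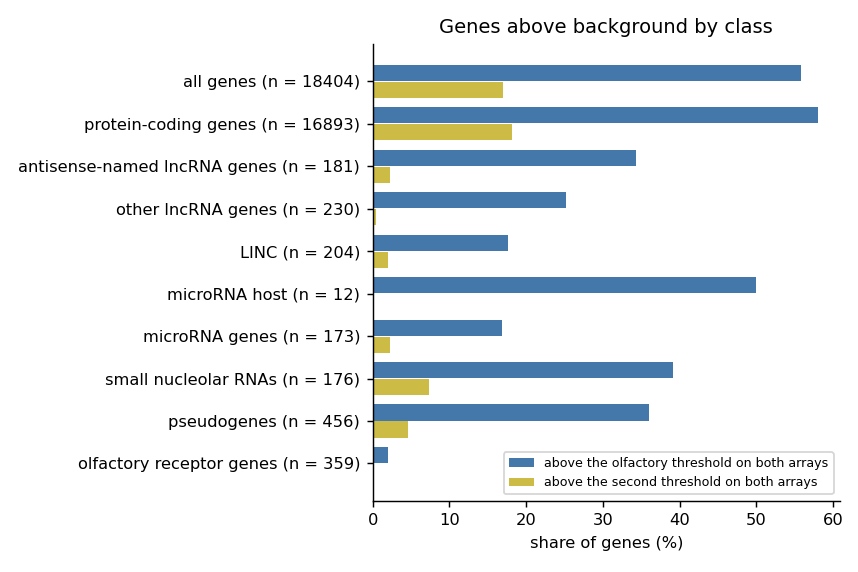
Bars give the share of genes (%) above the olfactory threshold (blue) and above the second threshold (yellow) on both arrays, by gene class with its number of genes. LINC genes reach 17.6% and microRNA hosts 50% above the olfactory threshold, beside 55.8% of all named genes.

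MALAT1 had the highest signal of all members. It read 8.74 on replicate 1 and 9.74 on replicate 2 (9.24 ± 0.70, n = 2), at percentiles 99.3 and 99.8 of all named genes. Both of its probe sets were higher on replicate 2, one reading 9.34 and 10.14 and the other 8.14 and 9.33. The gene's difference of 1.00 (log2) compares with an SD of 0.39 for the difference over all named genes. A list of proteins of nuclear speckles and of paraspeckles, the neighbouring bodies built on NEAT1, was set beside it. In this list 12 of 13 measured genes exceeded the first (olfactory) threshold and 11 the stricter one. The shares of all protein-coding genes were 58.0% and 18.2%. NUDT21, a subunit of cleavage factor I, was the highest (8.72 ± 0.17), and METTL16, which binds the triple helix of MALAT1, was the lowest (2.85 ± 0.33) and above the threshold on replicate 1 only. The median difference of this list between the arrays was 0.05.

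**Figure D3:**
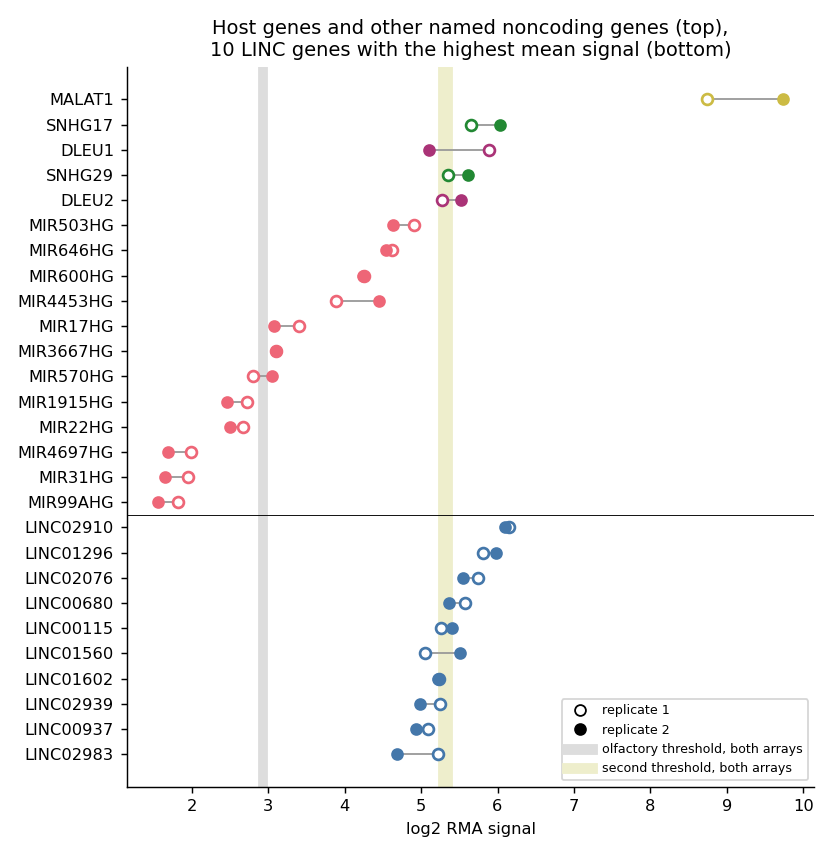
Open and filled circles give the log2 RMA signal on replicates 1 and 2 of the 17 members other than LINC genes (top) and of the 10 LINC genes with the highest mean signal (bottom); the grey and yellow bands span the olfactory and second thresholds of both arrays. MALAT1, SNHG17, SNHG29, DLEU1, DLEU2 and 6 of 12 microRNA hosts lie right of the grey band on both arrays.

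SNHG17 and SNHG29, which carry H/ACA and box C/D snoRNAs respectively, were the SNHG genes with probe sets of their own. SNHG17 read 5.65 on replicate 1 and 6.03 on replicate 2 (5.84 ± 0.27, n = 2). Its probe sets read 6.17 and 6.54, and 5.14 and 5.53, so both were higher on replicate 2. SNHG29 read 5.35 and 5.62 (5.48 ± 0.19). Its probe sets lay 4.55 apart on replicate 1: one read 7.63 and 7.69 and the other 3.08 and 3.55. The mean of SNHG29 therefore stands for neither of them, and with the higher probe set per gene the median of both hosts was 7.01 in place of 5.66.

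The snoRNAs inside these hosts that had probe sets of their own differed between the arrays in the other direction. Inside SNHG17, SNORA71A read 5.48 and 5.29 on replicates 1 and 2, SNORA71C 5.72 and 4.96, and SNORA71D 4.83 and 3.77. Inside SNHG29, SNORD49A read 3.93 and 3.38. All of these snoRNAs were above the olfactory threshold and lower on replicate 2, by 0.20 to 1.06, while the 4 probe sets of their hosts were higher there. With 1 array on each side this difference has no replicate check. The set shared by SNHG17 and SNORA71B, which cannot be given to either, was above the olfactory threshold and higher on replicate 2 (4.06 and 4.35). Another member that holds a measured snoRNA, LINC03006, went against the difference, with SNORA22 at 1.73 and 2.56, not above background. Of all 176 named snoRNAs on the array, 69 (39.2%) were above the threshold, 112 were lower and 57 higher on replicate 2, and their median difference was -0.19. The SNORA71 copies are close relatives, so their probes may not separate them. These small RNA genes were matched to hosts by position in the RefSeq gene table, without strand, which that table does not hold.

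GAS5 and 10 SNHG genes, SNHG17 among them, were named on 22 probe sets that also carry another symbol, usually a snoRNA of the same locus. Such a set cannot be given to the host or to the small RNA. Of the 22, 17 exceeded the first threshold and 4 the stricter one, beside 55.8% and 17.0% of all named genes. The GAS5 locus, whose RNA accumulates when growth stops, read 6.67 and 6.88 on the set shared with SNORD76, 5.10 and 5.00 on that shared with SNORD47, and 4.84 and 4.34 on that shared with SNORD80. The set that joins SNHG12 with its 3 H/ACA snoRNAs read 6.57 and 6.98, and the set of SNHG32 and SVIL read 6.51 and 7.01. These last sets and the SNORD76 set were higher on replicate 2, and the SNORD47 and SNORD80 sets lower. The other SNHG12 sets, each shared with 1 snoRNA, were all lower there: that of SNORA61 read 5.97 and 4.94, that of SNORA44 3.58 and 2.45, and that of SNORA16A 3.64 and 3.36.

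Among the other sets shared by a host and a small RNA, most of those lower on replicate 2 came from the SNHG1 locus. Outside that locus the sets went both ways, as those of GAS5 and SNHG12 above also did. All 6 sets of the SNHG1 locus were lower there, from the SNORD26 set (4.51 and 4.42) to the SNORD25 set (4.39 and 3.30). The set of SNHG3 and SNORA73A, the U17 snoRNA needed for early cleavage of ribosomal RNA precursors, read 5.66 and 3.81, whereas the set of SNHG3 and the neighbouring RCC1 read 5.11 and 5.40. The set of SNHG10 and the small Cajal body RNA SCARNA13 was also lower (3.02 and 2.65). The set of SNHG15 and SNORA9 went the other way (3.94 and 5.16). So did those of SNHG16 and SNORD1C (3.97 and 4.23), SNHG11 and SNORA60 (3.94 and 4.22), and SNHG17 and SNORA71B (4.06 and 4.35). That of SNHG21 and SCARNA15 was slightly higher on replicate 2 (1.19 and 1.23). Over the 20 sets shared by a host and a small RNA, 13 were lower and 7 higher on replicate 2, with a median difference of -0.27. That is much like all named snoRNAs, of which 112 of 176 were lower.

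Further snoRNAs and small Cajal body RNAs with probe sets of their own lay inside hosts that had none. In GAS5, 5 of 7 measured box C/D snoRNAs were above the olfactory threshold, with SNORD81 at 7.93 and 8.73, SNORD78 at 5.34 and 5.61, SNORD44 at 4.95 and 4.33, SNORD79 at 4.34 and 4.16, and SNORD74 at 4.18 and 3.53. SNORD81 and SNORD78 were higher on replicate 2 and the other 5 lower, with a median of -0.28 over the 7. In SNHG1, SNORD30 read 6.73 and 5.47 and SNORD28 4.58 and 3.66. SNHG14, an imprinted host active mainly in neurons, held 40 measured snoRNAs of the repeated SNORD115 and SNORD116 families and related genes, of which 1, SNORD116-15 (4.06 and 4.46), was above the threshold. The other such SNHG and GAS5 loci together had 13 of 22 above it. In these 22, 15 were lower and 6 higher on replicate 2. Over all 176 named snoRNAs, 69 (39.2%) were above the threshold, 112 were lower and 57 higher. The split of the 22 between the arrays was thus much like that of all named snoRNAs.

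**Figure D4:**
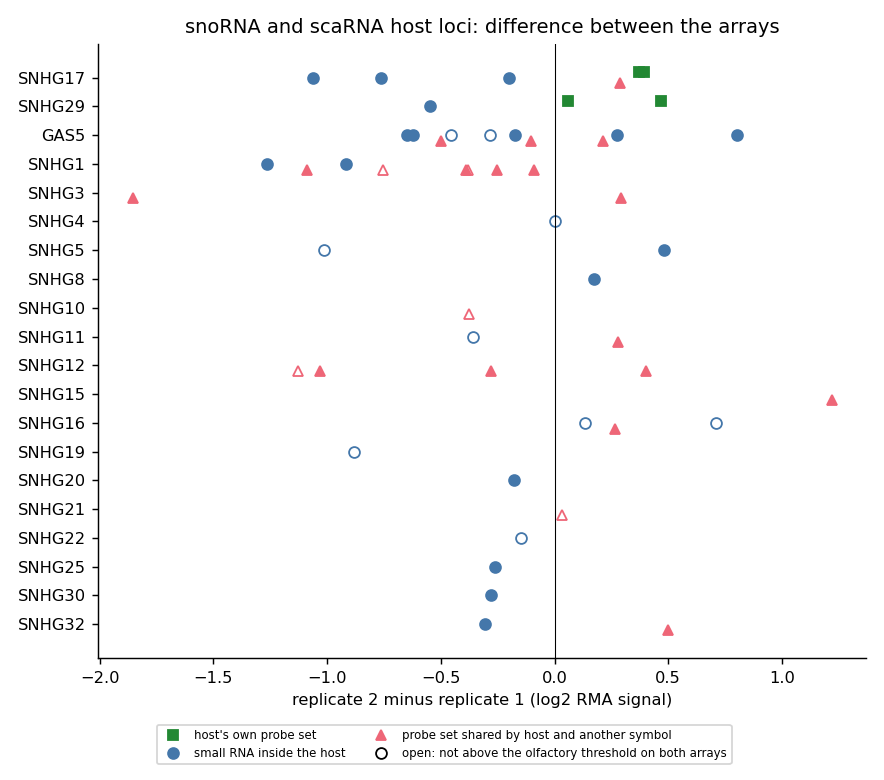
Each row is a host locus and each symbol the difference between the arrays (replicate 2 minus replicate 1, log2 RMA signal): squares are the host's own probe sets, circles small RNA genes inside it, triangles probe sets shared by the host and another symbol, and open symbols did not exceed the first threshold on both arrays. The 4 squares of SNHG17 and SNHG29 lie right of 0, and the 4 circles in the same rows lie left of it. The triangle in the SNHG17 row, the set shared with SNORA71B, lies right of 0. SNHG14, with 40 measured snoRNAs, is not drawn.

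Genes that act on host transcripts and snoRNAs were above background almost throughout. Of the nonsense-mediated decay list, 7 of 7 measured genes were above the olfactory threshold, from the endonuclease gene SMG6 (3.49 ± 0.22) to the kinase gene SMG1 (6.79 ± 0.04). Of the snoRNP list, 14 of 14 were above it and 10 above the second, with the methyltransferase FBL the highest (9.04 ± 0.22) and the assembly factor NAF1 the lowest (3.08 ± 0.05). The snoRNP list had a median difference of -0.26 between the arrays, with 8 of 14 genes lower on replicate 2, beside -0.04 over all genes. Of the protein-coding snoRNA hosts, 14 of 14 measured genes exceeded the first threshold and 13 the stricter one. NCL, which encodes nucleolin, was the highest at 10.94 ± 0.01 and the translation initiation gene EIF4A2 the lowest at 4.63 ± 0.13.

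Among the microRNA hosts, MIR503HG, MIR646HG, MIR600HG, MIR4453HG, MIR17HG and MIR3667HG were above the olfactory threshold. MIR503HG read 4.90 and 4.64 on replicates 1 and 2, MIR646HG 4.62 and 4.54, and MIR600HG 4.25 and 4.24. MIR4453HG read 3.89 and 4.45, and its annotated start lies 172 bases from that of the ubiquitin ligase gene FBXW7 on the opposite strand. MIR17HG, the host of the growth-promoting miR-17 to miR-92a cluster and a known target of MYC, read 3.40 and 3.08 (3.24 ± 0.23), close to background. MIR3667HG read 3.10 on both arrays. The last pair, MIR17HG and MIR3667HG, was no longer above the 99th percentile of the olfactory receptors (3.60 and 3.76).

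The other microRNA hosts were not above background on both arrays. MIR570HG passed on replicate 2 only (2.80 and 3.06). MIR1915HG read 2.72 and 2.46, MIR22HG 2.67 and 2.49, MIR4697HG 1.99 and 1.69, MIR31HG 1.95 and 1.65, and MIR99AHG 1.82 and 1.56. Of the 12 hosts, 9 were lower, 2 higher and 1 equal on replicate 2, with a median difference of -0.22. Over all 18404 genes 9687 were lower and 7755 higher, and over the 173 microRNA genes 102 were lower and 46 higher. None of the 12 hosts differed by more than 1 (log2), a difference seen in 1.96% of all genes and in 1 of the 173 microRNA genes. The sets shared by a microRNA and its host, among them that of MIR155 and MIR155HG (2.54 on both arrays), had 0 of 6 above the olfactory threshold.

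MIR17HG carries 6 microRNA hairpins in 1 transcript, none with a probe set used here. The microRNAs were therefore not measured, and the host signal does not show their level. For each hairpin the arm usually taken as the guide strand is shown, and the opposite arms, which have other seeds, are left out. Sequences are from RefSeq (GRCh38.p14, plus strand of chromosome 13), 5′ to 3′, with the seed, bases 2 to 8, in capitals. They are grouped by seed: the seeds of miR-17-5p and miR-20a-5p are identical, as are those of miR-19a-3p and miR-19b-3p.
hsa-miR-17-5p: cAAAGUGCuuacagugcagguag
hsa-miR-20a-5p: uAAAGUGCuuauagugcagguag
hsa-miR-18a-5p: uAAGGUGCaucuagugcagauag
hsa-miR-19a-3p: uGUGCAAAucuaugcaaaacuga
hsa-miR-19b-3p: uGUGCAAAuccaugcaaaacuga
hsa-miR-92a-3p: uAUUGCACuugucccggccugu

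Of the 7 microRNA genes inside members that had probe sets of their own, 0 passed the olfactory threshold on both arrays. Over all 173 microRNA genes named on the array, 29 (16.8%) were. The arrays measured labelled total RNA, and a probe set on a hairpin gene does not show whether it reads the precursor or the mature form. MIR503 inside MIR503HG read 2.90 and 3.01, above the threshold on replicate 2 only, as was MIR99A inside MIR99AHG (2.60 and 3.21). MIRLET7C in the same host read 1.39 and 0.90, and MIR31 inside MIR31HG 1.60 and 1.42. Of the microRNA processing genes, 10 of 10 exceeded the first threshold and 5 the stricter one, beside 58.0% and 18.2% of all protein-coding genes. They ranged from TARBP2 (3.23 ± 0.18), which encodes a DICER1 partner, to the nuclease gene DROSHA (7.72 ± 0.18).

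DLEU1 and DLEU2, transcripts of a region deleted in chronic lymphocytic leukaemia, were both above the olfactory threshold. DLEU1 read 5.89 on replicate 1 and 5.10 on replicate 2 (5.50 ± 0.56, n = 2). DLEU2, the host of miR-15a and miR-16-1, read 5.27 and 5.52 (5.39 ± 0.18). Each therefore exceeded the second threshold on 1 array only, DLEU1 on replicate 1 and DLEU2 on replicate 2. The measured hairpin genes inside DLEU2 were not above background, MIR15A reading 2.13 on both arrays and MIR16-1 1.06 and 1.18. Their 5p arms share the seed AGCAGCA, shown in capitals, and the 3p arms, with other seeds, are left out (RefSeq, GRCh38.p14, minus strand of chromosome 13).
hsa-miR-15a-5p: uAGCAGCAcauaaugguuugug
hsa-miR-16-5p: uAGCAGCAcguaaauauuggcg

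The protein-coding genes and DLEU7 around DLEU1 and DLEU2 were also above background. Of 6 measured neighbours, 6 passed the olfactory threshold and 4 the second, beside 58.0% and 18.2% of all protein-coding genes. They ranged from DLEU7 (4.92 ± 0.16) to the cell cycle gene RB1 (6.55 ± 0.03). All 6 were higher on replicate 2, by a median of 0.29, as was DLEU2 by 0.25, whereas DLEU1 fell by 0.80 on the log2 scale.

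The 10 LINC genes with the highest mean signal lay between 4.96 and 6.12. LINC02910 read 6.16 and 6.09 on replicates 1 and 2. LINC01296 read 5.81 and 5.98, but its 2 probe sets were 3.88 apart on replicate 1 (7.75 and 3.87), and its Entrez ID was not found in the RefSeq gene table. LINC02076 read 5.74 and 5.55, with probe sets 1.85 apart on replicate 1. Signals that rest on probe sets so far apart are uncertain.

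LINC00680 read 5.58 and 5.36, LINC00115 5.26 and 5.41, and LINC01602 5.23 and 5.22. LINC01560, whose annotated start lies 506 bases from that of the zinc finger gene ZNF41 on the opposite strand, read 5.05 and 5.52. LINC02939 read 5.25 and 4.98, LINC00937 5.10 and 4.94, and LINC02983 5.23 and 4.69. Of these 10, LINC02983 had the largest difference between the arrays (-0.54) and LINC01602 the smallest (-0.01).

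The other LINC genes were mostly at background level. The class as a whole ranged from 1.12 (LINC00529) to 6.12 in mean signal with a median of 2.37, and 146 of the 204 were above the olfactory threshold on neither array. The 36 above it on both had a median of 4.27. LINC00526 (2.91 on both arrays), LINC02897 (2.89 and 2.93) and LINC02899 (2.95 on both) lay within 0.1 of the threshold on both arrays and passed on replicate 2 only. LINC00965 shows how much the choice of probe set can matter: its 4 sets ranged from 0.89 to 4.48 on replicate 1 and from 0.77 to 5.83 on replicate 2, and their mean was not above background.

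Members differed between the arrays about as much as all genes did. Of the 221, 118 were lower, 89 higher and 14 (6.33%) exactly equal on replicate 2, beside 5.23% equal among all genes. Their median difference was -0.05, beside -0.04 over all genes, and turned to 0.03 once the arrays had been quantile-normalized against one another. In the members above the threshold on at least 1 array the median was 0.12. That filter uses the same signals, and 17 members passed it through replicate 2 only against 6 through replicate 1 only. A positive value is therefore partly built in. In members above the threshold on both arrays the median was 0.04. The SD of the difference over the 221 members was 0.40, beside 0.39 over all genes. Over the members, which are not independent replicates, the correlation of the arrays was 0.940 by Pearson's r and 0.855 by Spearman's rho, below the 0.974 and 0.965 over all genes; the points share the same 2 arrays and their normalization. Of the 47 members above the olfactory threshold, 24 were higher and 21 lower on replicate 2.

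Differences of more than 1 (log2) were found in 3 members (1.36%), beside 1.96% of all genes. They were higher on replicate 2 in 2 of them, beside 1.08% of all genes, and higher on replicate 1 in 1, beside 0.880%. LINC00652 had the largest, reading 1.41 on replicate 1 and 4.32 on replicate 2. LINC00341 read 2.54 and 3.61. LINC00917, named after its values were seen, read 2.45 and 1.06 and was above background on neither array. Next in size among members above the threshold on at least 1 array were MALAT1, LINC00921 (3.62 and 2.80) and DLEU1. LINC00652 and LINC00341 each have 1 probe set and were above the olfactory threshold on replicate 2 only.

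Members above background had promoters richer in CpG dinucleotides, the sites of DNA methylation, than the other members. RefSeq promoter sequences (GRCh38.p14, 250 bases before to 50 after the annotated start) were matched to 158 members. The median ratio of observed to expected CpG was 0.767 in the 34 members that passed the olfactory threshold on both arrays and 0.313 in the other 124. A ratio of at least 0.6 was found in 21 of the 34 (61.8%) and in 30 of the 124 (24.2%). The median GC content was 59.7% and 53.7%. Among LINC genes alone the medians were 0.759 (n = 24) and 0.293 (n = 120). This split was examined after the signals had been seen and was not tested.

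The same order held for other genes on the array. In bands of the CpG ratio under 0.3, from 0.3 to 0.6, and of 0.6 and over, 6 of 67 (8.96%), 7 of 40 (17.5%) and 21 of 51 (41.2%) members were above the olfactory threshold. The shares were 11.6%, 20.3% and 48.6% for other long noncoding RNA genes and 24.4%, 42.6% and 71.5% for protein-coding genes. The pattern is thus not particular to the members, and in each band fewer members than protein-coding genes were above the threshold. The base composition of the array probes, which can alter their background signal, was not used here, so its part was not tested.

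**Figure D5:**
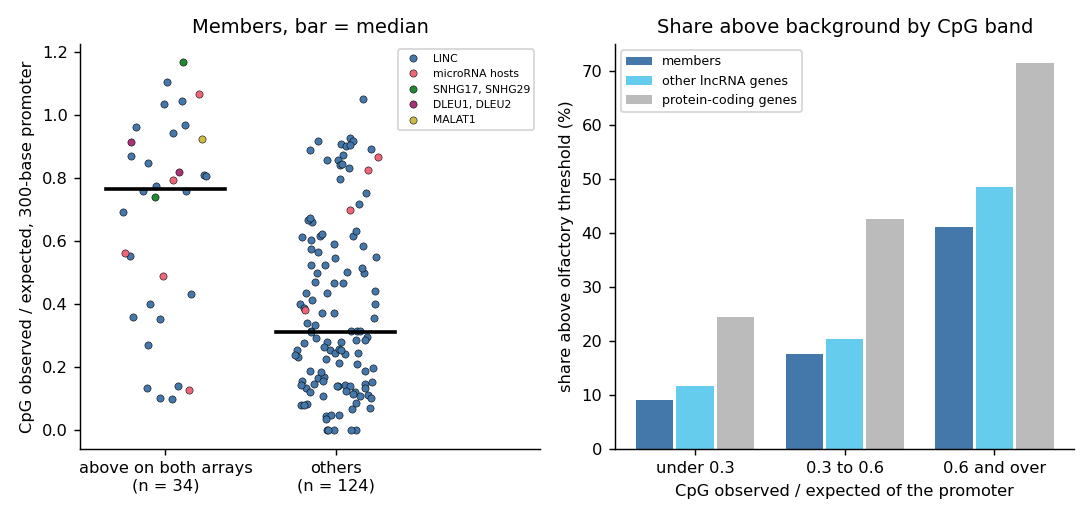
Left, the observed to expected CpG ratio of the 300-base promoter for each of 158 members, by whether the gene passed the olfactory threshold on both arrays; bars are medians (0.767 and 0.313), and sideways spread within a column is only for display. Right, the share of genes (%) above the threshold in 3 bands of the ratio, rising from 8.96% to 41.2% in members and from 24.4% to 71.5% in protein-coding genes.

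Promoter stretches of 6 members are shown to make the range visible, each from 100 bases before to 50 after the annotated start, 5′ to 3′ on the strand of the gene, with CG dinucleotides in capitals (RefSeq, GRCh38.p14). The first pair are hosts above the olfactory threshold with many CG, although MIR17HG was close to it (3.40 and 3.08 on replicates 1 and 2). SNHG17 has 23 in these 150 bases (chr20:38435279-38435428, minus strand) and MIR17HG has 16 (chr13:91347587-91347736, plus strand). MIR99AHG with 1 CG (chr21:16070388-16070537, plus strand) was not above background. LINC00652, which passed on replicate 2 only, also has 1 (chr20:18794535-18794684, minus strand). The last pair go against the pattern: LINC02910, with the highest mean signal of the LINC genes, has 2 (chr20:60055825-60055974, plus strand), and MIR31HG, which was not above background, has 21 (chr9:21559749-21559898, minus strand).
SNHG17: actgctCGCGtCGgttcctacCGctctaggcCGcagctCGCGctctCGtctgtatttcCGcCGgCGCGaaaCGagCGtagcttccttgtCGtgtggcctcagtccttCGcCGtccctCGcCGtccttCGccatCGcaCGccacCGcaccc
MIR17HG: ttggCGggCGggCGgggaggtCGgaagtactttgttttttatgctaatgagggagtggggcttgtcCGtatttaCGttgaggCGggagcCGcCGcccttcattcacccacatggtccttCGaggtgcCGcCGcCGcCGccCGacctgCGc
MIR99AHG: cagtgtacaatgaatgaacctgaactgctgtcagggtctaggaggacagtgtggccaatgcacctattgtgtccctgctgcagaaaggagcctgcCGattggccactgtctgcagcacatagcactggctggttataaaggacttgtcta
LINC00652: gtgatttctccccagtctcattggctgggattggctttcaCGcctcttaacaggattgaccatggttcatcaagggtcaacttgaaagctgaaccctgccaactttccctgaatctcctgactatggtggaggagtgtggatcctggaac
LINC02910: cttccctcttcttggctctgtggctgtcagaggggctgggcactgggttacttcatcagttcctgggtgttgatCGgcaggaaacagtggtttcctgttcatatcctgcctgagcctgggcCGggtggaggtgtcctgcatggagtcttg
MIR31HG: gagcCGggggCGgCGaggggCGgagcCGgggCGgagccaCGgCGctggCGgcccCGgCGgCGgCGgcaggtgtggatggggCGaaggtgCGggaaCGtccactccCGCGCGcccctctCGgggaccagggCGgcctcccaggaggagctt

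Short motifs were searched on both strands of the 300-base promoters. GGGCGG, the GC box bound by SP1, which overlaps CpG content, was found in 15 of the 34 members above background (44.1%) and in 35 of the other 124 (28.2%), beside 44.6% of all 27305 promoters in the table and 25.4% of the 11462 promoters of long noncoding RNA genes. TATAAA, the TATA box, was found in 3 (8.82%) and 20 (16.1%) respectively, beside 12% and 15.2%. CACGTG, the E-box bound by MYC among others, was found in 8 of all 158 members (5.06%), DLEU2 among them, beside 7.43% and 5.44%. CCGGAAG, a core of ETS factor sites, was found in 10 (6.33%), beside 10.7% and 5.74%, and CCAAT, bound by NF-Y, in 55 (34.8%), beside 35.7% and 34.8%.

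Transcripts of the translation machinery and several snoRNA hosts begin with a C followed by a run of pyrimidines. A C at the annotated start followed by at least 4 bases that are C or T was found in 2 of the 158 members (1.27%), LINC01116 and LINC02875, beside 4.04% of all promoters and 3.27% of long noncoding RNA promoters. With the C allowed within 5 bases of the annotated start it was found in 32 (20.3%), SNHG17 among them, beside 21.1% and 19.6%. An annotated start can differ from the one used in HL-60. Of the 158 members, 5 had the annotated start of a protein-coding gene on the opposite strand within 1000 bases. In 3 of these pairs the member was above background, beside 34 of all 158: MIR4453HG with FBXW7, LINC01560 with ZNF41, and LINC01547 (3.17 and 3.46) with SLX9. LINC01124 (1.95 on both arrays) with SP5 and MIR22HG (2.67 and 2.49) with WDR81 were not. So few pairs do not show whether such a start goes with a signal.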

How the data were processed

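The authors deposited log2 RMA signals for each probe set, RMA being named in the submitters' processing notes; the sources used here name no software, version or log base for it. Base 2 was taken as the usual base of RMA. RNA was amplified from total RNA and labelled with biotin, per the labels' protocols. Of 32321 probe sets, 19158 carried 1 symbol in the platform annotation and were used to name genes; 1388 carried several, and 11775 were not listed there. Probe sets of a gene were averaged. RMA makes the distributions alike and would hide a change in total RNA per cell; the number of arrays limits the precision. Background came from olfactory receptor genes, as the text describes.

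The members and lists were chosen with earlier results of these data known. Named genes were all members other than LINC genes, the 10 LINC genes with the highest mean, the 5 largest differences between arrays among members above background on at least 1 array, members within 0.1 of the threshold, small RNA genes above background inside named hosts, and the highest and lowest of each accompanying list. Other genes named, such as LINC00529, LINC00965, LINC01547, LINC01124, LINC01116, LINC02875 and the small RNA genes below background, were chosen after their values were seen. Of the members, 215 of 221 Entrez IDs were found in the RefSeq gene table (GRCh38.p14), used for biotypes and for which genes lie inside others, and 158 in the promoter table. Counting steps were tested on simulated data. Python 3.11.15, numpy 2.4.6, pandas 2.3.3, scipy 1.17.1 and statsmodels 0.14.6 were used.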

Additional observations from a re-analysis of the deposited data

Results flagged for a closer look

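Probe sets that carry a symbol matching the rule together with other symbols stand outside the counts of members. Of 49 such sets, 27 were above the olfactory threshold on both arrays, a share near the 55.8% of all named genes. They were 17 of 22 that name a snoRNA host, 10 of 21 that name a LINC gene and 0 of 6 that name a microRNA host. The LINC sets include one shared with the abundant RNA RN7SK (10.66 and 10.38 on replicates 1 and 2) and one shared with FBXO25 (6.13 and 6.11). Which of the joined genes such a set reads was not tested.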

How the results depend on the processing

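No paired analysis was possible because there is only 1 group. Of the values recomputed with other thresholds, probe set summaries, filters, scalings or 1 array, 46 changed by at most 1.5-fold for counts or less than 1 SD otherwise, and 10 changed by more. With the threshold at the 99th percentile instead, 30 in place of 47 members and 21 in place of 36 LINC genes were above background. With the second background set 6 members were, among them 1 snoRNA host, 0 microRNA hosts and 4 LINC genes, and 1 in place of 4 small RNA genes inside members. The highest probe set per gene moved the median of the snoRNA hosts to 7.01, since the sets of SNHG29 lie far apart. The pyrimidine start was found in 1 member with at least 6 pyrimidines and in 32 within 5 bases of the start. The median difference of members between the arrays was -0.05 as reported and 0.03 after quantile or loess scaling, and 0.12 in members above the threshold on at least 1 array. The 0.12 is partly built in, since more members passed that filter through replicate 2 only than through replicate 1 only. On each array alone, 53 to 64 members were above background, 42 to 52 of them LINC genes. In alternatives chosen after seeing the data, the median CpG ratio of members above background exceeded that of the others by 0.45 to 0.64, and by 0.47 among LINC genes. The 0.64 came from the second background set and rests on very few genes. Only 6 members exceeded that set, and LINC01296 and LINC00680 among them had no promoter sequence.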
